A study of Mus musculus with 4 samples.

Results

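*Hox* genes mark the position of a cell along the head-to-tail axis, and they were read here as markers of the cord level from which the spinal slices came. All probes were taken whose gene name is *Hoxa*, *Hoxb*, *Hoxc* or *Hoxd* followed only by digits, which gave 39 genes with 44 probes, of 30222 gene names and 39429 probes on the array. The RNA was that of spinal slices cut at lumbar levels L4 to L5 in male ICR mice, an outbred stock, aged 5 to 6 weeks by the methods. Nerve injury was a partial ligation of the sciatic nerve (PSL) made 7 days earlier. Sham-operated mice (sham+PSL) and adrenalectomized mice that drank saline (ADX+PSL) were sampled at zeitgeber time 10 (ZT10, late in the light phase) and at ZT22 (late in the dark phase). Every condition carried the nerve ligation, and no mouse without it was hybridized. Each of the 4 conditions had 1 one-colour array of 60-base probes, so no comparison below has a replicate or a test, and mice, dissections and slices all enter any difference between arrays. How many mice each RNA stands for, and which side of the cord, is not given in the sources used here.

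In mammals the *Hox* genes lie in 4 clusters, and a gene's number (its paralog group) gives its place within the cluster. Low numbers are switched on early and reach far forward into the hindbrain, whereas high numbers are switched on later and only towards the tail, and the resulting code persists in adult tissue. In the cord, groups 4 to 7 are known for cervical, brachial and upper thoracic levels, groups 8 and 9 for thoracic levels, groups 10 and 11 for lumbar levels and groups 12 and 13 for sacral and tail levels. *Hox* proteins set the columnar and pool identity of motor neurons and bind DNA together with partners of the Pbx and Meis families.

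The order of the probes along the chromosome followed the paralog number in all 4 clusters (mm9 coordinates of the array annotation). *HoxA* had 11 genes over 103 kb of chromosome 6, *HoxB* had 10 genes over 171 kb of chromosome 11, *HoxC* had 9 genes over 108 kb of chromosome 15, and *HoxD* had 9 genes over 93.8 kb of chromosome 2. Paralogs share their homeobox, the stretch that encodes the DNA-binding homeodomain, and a probe placed there may take up RNA of another member. The longest run of letters that a *Hox* probe shared with the probe of another *Hox* gene, in the printed direction, was between 7 and 11 of 60, with a median of 9 over the 44 probes. Probes were compared with probes only, and not with the transcripts of other *Hox* genes. Short runs therefore do not show that a probe is specific, and uptake of another member's RNA was not tested. Which of the 44 probes lie in the homeobox was not determined for the whole set, but the 3 probes printed below hold letters of it. Their readings may therefore include RNA of another member. The annotation of 1 probe, the weaker one of *Hoxb3*, also lists a transcript of *Hoxd3*. Shown are 3 probes on which a reading could turn: *Hoxc11* and *Hoxc12*, which share the longest run within a cluster, and the *Hoxa13* probe that was detected on 1 array only. They are printed 5′ to 3′, and capitals mark the longest runs shared with a probe of another *Hox* gene.
Hoxc11, chr15:102787022-102787081, plus strand: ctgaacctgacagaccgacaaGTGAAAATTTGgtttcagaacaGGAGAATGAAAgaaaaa
Hoxc12, chr15:102768889-102768948, plus strand: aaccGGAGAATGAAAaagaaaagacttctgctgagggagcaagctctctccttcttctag
Hoxa13, chr6:52208980-52209039, minus strand: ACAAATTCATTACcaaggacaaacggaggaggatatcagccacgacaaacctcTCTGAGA
The probes of *Hoxc11* and *Hoxc12* share GGAGAATGAAA, a run held by 3 of all 39429 probes (0.00761%), and the other run of *Hoxc11* lies in the probe of *Hoxb4*.

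The detected *Hox* genes ran from group 1 to group 13, with the complete set of groups 4 to 11. A gene counted as detected on an array where at least 1 of its probes was flagged well above background by the scanner software. Of the 39 genes, 36 were detected on at least 1 array and 34 on all 4, with 34 genes in ADX+PSL at ZT22 and 35 on each other array. All 25 genes of groups 4 to 11 were detected on every array. The 3 genes detected on no array were *Hoxb1*, which patterns a single hindbrain segment, *Hoxd12*, a limb gene, and *Hoxb13*, a gene of the tail and prostate. Of the 6 genes of groups 12 and 13, 2 were detected in ADX+PSL at ZT22 and 3 on each other array. Of 12 transcription factor genes of the anterior nervous system, 7 were detected on no array, among them *Emx1*, *Emx2* and *Otx1*, and 4 on all arrays (*En2*, *Lhx2*, *Gbx2* and *Neurod6*). Over all probes, between 65.1% and 70.1% were well above background.

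Levels are the authors' normalized intensities in arbitrary units, quantile-normalized over the 4 arrays, with a median of 105 in each column. They are always given in the order sham+PSL ZT10, sham+PSL ZT22, ADX+PSL ZT10 and ADX+PSL ZT22, for the brightest probe of a gene. Levels of different probes cannot be set against each other, since probes bind with different strength, so that only a gene's differences between arrays and its detection are compared. The spot error of a log2 difference, which covers the measurement of the spot alone, was 0.20 for most *Hox* probes and reached 0.42 for *Hoxd13*. In bulk tissue, fewer cells that express a gene and less of its RNA per cell cannot be told apart.

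**Figure D1:**
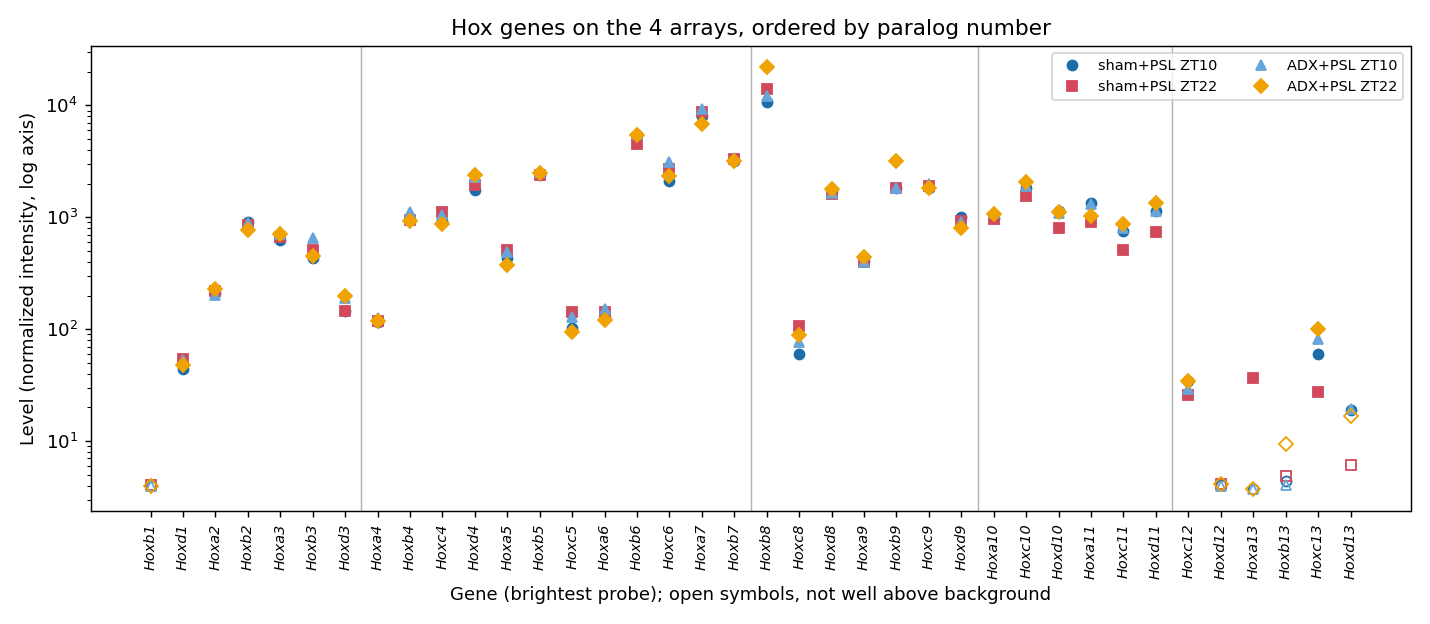
Level (normalized intensity, log axis) of the brightest probe of 38 of the 39 *Hox* genes on the 4 arrays, ordered by paralog number, with grey lines between groups 1 to 3, 4 to 7, 8 to 9, 10 to 11 and 12 to 13; open symbols were not well above background. In groups 10 and 11 the sham+PSL ZT22 symbol lies at the bottom of each of the 6 genes, and heights are comparable within a gene only.

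The lumbar groups set 1 array apart: sham+PSL at ZT22 had the lowest level of the 4 arrays in 6 of 6 genes of groups 10 and 11. With *Hoxc12* and *Hoxc13*, the 2 genes of groups 12 and 13 detected on all arrays, it was lowest in 8 of 8. Among the 25009 probes of the whole array that were detected 4 times, it was lowest for 28.1%. The array that was lowest or highest was counted after the values had been seen, so that these counts describe the pattern and do not test it.

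Group 10 holds the genes best known for lumbar motor neuron identity. *Hoxd10*, which with *Hoxc10* sets the lateral motor column of the hindlimb, read 1132, 806, 1089.7 and 1109. *Hoxc10* itself read 1847, 1552, 1897 and 2052. In both genes the sham+PSL ZT22 array stood below the other 3, which lay within 0.05 (*Hoxd10*) and 0.15 (*Hoxc10*) log2 units of each other. *Hoxa10*, known for the lumbar spine and the uterus, read 987, 972, 1094 and 1072. Its full range of 1.13-fold was within the spot error.

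In group 11, *Hoxd11* and *Hoxc11* had the widest gap of the lumbar genes between sham+PSL at ZT22 and the mean of the rest, at 0.70 and 0.66 log2 units. *Hoxd11*, a gene of the forearm, the kidney and the caudal spine, read 1133, 738, 1132 and 1335 on its brightest probe and 287, 153, 255 and 261 on the other. Both probes thus put sham+PSL at ZT22 lowest, 1.54-fold and 1.88-fold under sham+PSL at ZT10. *Hoxc11*, a lumbosacral gene, read 759, 515, 809 and 876. *Hoxa11*, known for the limb and the uterus, read 1338, 913, 1306 and 1032 and is the only lumbar member printed 10 times, with a log2 SD between its spots of 0.024 to 0.054 per array. For *Hoxa11* the ADX+PSL ZT22 array was the next lowest, 1.27-fold under ADX+PSL at ZT10, whereas for *Hoxc11* and the brightest probe of *Hoxd11* it was the highest of all. On the other *Hoxd11* probe sham+PSL at ZT10 was the highest. The antisense transcript of the *HoxA* cluster *Hoxa11as*, which is not among the 39 genes and was named after its values were seen, read 2176, 1548, 2316 and 1931, with the same order of the lower pair as *Hoxa11*. Whether the 2 probes share signal from the overlapping strands was not tested.

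Of groups 12 and 13, *Hoxc12* and *Hoxc13* were detected on every array. *Hoxc13*, a gene of hair, nail and tail, had the widest spread of any *Hox* gene detected on all arrays, at 60.4, 27.7, 81.2 and 101. *Hoxc12* read 34.3, 25.9, 29.4 and 34.2, a range of 1.32-fold with spot errors between 0.30 and 0.37 on the log2 scale. The lowest level flagged well above background was between 12.8 and 22.2 per array. *Hoxc12* lay near it on every array and *Hoxc13* only in sham+PSL at ZT22 (27.7 against 18.4). *Hoxd13*, known for the digits, was detected on both ZT10 arrays (19.1 and 19.2) and on neither ZT22 array (6.13 and 16.7). The reading of 16.7 lay under the lowest detected level of its own array, 22.2. *Hoxa13*, known for the hand, foot and urogenital tract, went the other way on 1 of its 2 probes: it read 36.7 and was detected in sham+PSL at ZT22, against 3.70 to 3.77 on the other arrays. The other probe was detected on none, with 3.53 to 8.04.

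Groups 8 and 9, the thoracic groups, moved as single genes. *Hoxb8*, which is expressed in the dorsal cord and known for the sensory and grooming phenotype of its mutants, read 10769, 13947, 12244 and 22025. *Hoxb9*, its neighbour in the cluster, read 1831, 1839, 1829.6 and 3174. Both had their highest level in ADX+PSL at ZT22, and for *Hoxb9* the other 3 arrays lay within the spot error of each other. *Hoxc8*, which patterns motor pools of the forelimb, read 60.5, 107.2, 76.3 and 87.99, highest in sham+PSL at ZT22. *Hoxc9*, the gene that holds thoracic motor neurons apart from the limb levels, read 1844, 1896, 1998 and 1811. Its range was within the spot error. *Hoxd8* was as even, at 1737, 1614, 1649 and 1781. *Hoxa9* read 405, 398, 398 and 441, with 388, 335, 402 and 383 on its second probe, and so also stayed within 1.20-fold. *Hoxd9* read 1006, 929, 904 and 802, a range of 1.25-fold with sham+PSL at ZT10 at the top.

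Groups 4 to 7, known for cervical to upper thoracic levels, were detected on every array in 12 of 12 genes. *Hoxc5* and *Hoxc6* had the widest ranges of these groups, 1.52-fold and 1.51-fold. *Hoxc6*, a gene of the forelimb motor columns, read 2092, 2697, 3154 and 2351. *Hoxc5* read 103, 143, 128 and 94.5, and *Hoxc4* read 933, 1123, 1054 and 876. In all 3 of them sham+PSL was higher at ZT22 than at ZT10 and ADX+PSL was higher at ZT10 than at ZT22. *Hoxa5*, which is needed for phrenic motor neurons and the lung, followed the same order at 432, 506, 489 and 375. So did *Hoxa6* at 127, 143, 152 and 119.8 and *Hoxa7* at 8049, 8804, 9386 and 6879, although their sham+PSL differences (-0.18 and -0.13 on the log2 scale) were within the spot error.

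*HoxB* genes of the same groups were steadier. *Hoxb5* read 2382, 2393, 2527 and 2475, and *Hoxb7* read 3163, 3335, 3404 and 3195. The levels of *Hoxb4* were 949.7, 941, 1112 and 927. All of these ranges were within 1.20-fold. *Hoxb6*, at 5411, 4560, 5547 and 5440.4, was the 1 gene of groups 4 to 7 with its lowest level in sham+PSL at ZT22. *Hoxd4*, the only *HoxD* gene of these groups, read 1747, 1948, 2279.9 and 2375, with both readings after adrenalectomy above both sham readings. *Hoxa4* had the narrowest range of these groups outside the *HoxB* cluster, at 115, 119, 126 and 117.

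Groups 1 to 3, which pattern the hindbrain, were present at 7 of 8 genes. *Hoxd1*, *Hoxa2*, *Hoxb2* and *Hoxa3* ranged by no more than 1.23-fold over the 4 arrays. *Hoxd3* read 144, 146, 189 and 199, with the same split by operation as *Hoxd4* beside it. *Hoxb3* read 434, 506, 651 and 452 on its brightest probe and 381, 407, 475 and 403 on the probe that also lists *Hoxd3*.

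**Figure D2:**
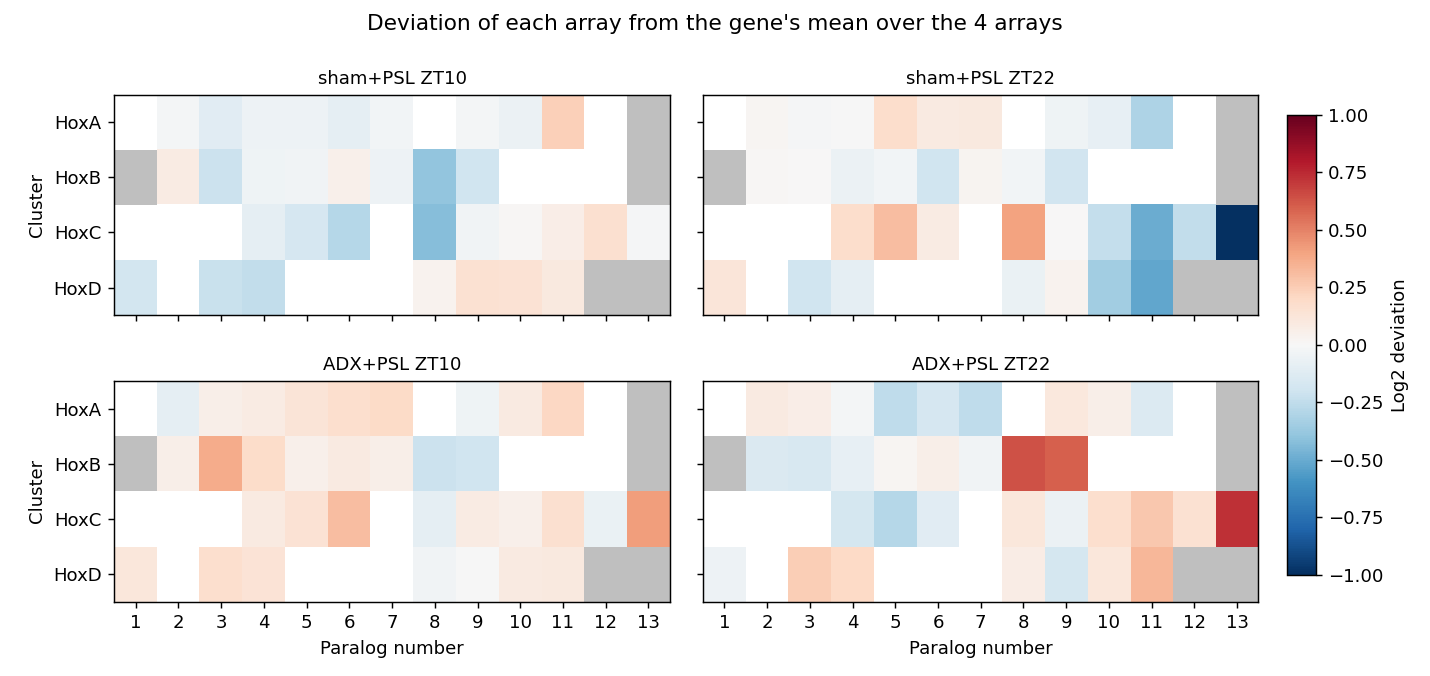
Log2 deviation of each array from the gene's mean over the 4 arrays (colour, which saturates at 1 log2 unit either way), by cluster and paralog number, for *Hox* genes detected on all arrays (brightest probe); grey fields are genes not detected on all arrays, and blank fields hold no gene shown. On the sham+PSL ZT22 array the fields of groups 10 to 13 are blue in the *HoxA*, *HoxC* and *HoxD* clusters, with a median of -0.33.

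The deviation of an array from a gene's mean gives the shape of each array along the axis. In sham+PSL at ZT22 the median deviation was 0.01 in groups 1 to 3, 0.06 in groups 4 to 7, -0.02 in groups 8 and 9 and -0.33 in groups 10 and 11. The step thus lay between group 9 and group 11. For groups 10 and 11 the other arrays had medians of 0.08, 0.09 and 0.14, close to each other. For groups 4 to 7 the medians were 0.13 for ADX+PSL ZT10, -0.10 for ADX+PSL ZT22 and -0.05 for sham+PSL ZT10. ADX+PSL at ZT10 was the highest array in 8 of 12 genes of groups 4 to 7 (24.3% of all probes), and ADX+PSL at ZT22 was the lowest in 6 of 12 (25.6%).

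For the comparison of time points in sham+PSL mice, 5 of 6 lumbar genes, *Hoxc12* and *Hoxc13* were higher at ZT10 by more than the spot error. Most genes of groups 4 to 7 were lower, many of them within the spot error, and *Hoxb6* was higher past it (0.25). *Hoxc13* differed by 1.13 log2 units (spot error 0.30) and *Hoxc12*, near background, by 0.40 (spot error 0.34). *Hoxd11* differed by 0.62, *Hoxc11* by 0.56, *Hoxa11* by 0.55, *Hoxd10* by 0.49 and *Hoxc10* by 0.25. *Hoxa10*, at 0.02, was within the spot error, and *Hoxa13* went the other way. At the other end, *Hoxc8* was at -0.83, *Hoxc5* at -0.48, and *Hoxb8* and *Hoxc6* at -0.37. The median was 0.52 over groups 10 and 11 (6 of 6 genes above 0) and -0.14 over groups 4 to 7 (10 of 12 below 0), beside 0.01 over all probes and -0.03 over the 34 *Hox* genes. Under no normalization between arrays, 8 of 12 genes of groups 4 to 7 were below 0. The difference of groups 10 to 13 over groups 4 to 7 cancels only a constant log2 shift between arrays. It was 0.66, and 0.55 with normexp background correction. It had the same sign in each cluster that holds both sets, at 0.44 in *HoxA*, 0.85 in *HoxC* and 0.71 in *HoxD*. These values rest on few genes, with only 2 of groups 10 to 13 in *HoxA* and 2 in *HoxD*. For groups 4 to 7, *HoxD* has *Hoxd4* alone, at -0.16 and within the spot error. *HoxB* has no gene in groups 10 to 12.

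Few of these differences were large. Past 2-fold were 2 of 39 *Hox* probes, *Hoxc13* higher and *Hoxa13* at least 2.47-fold lower at ZT10, beside 3.45% of all probes. Past 1.5-fold were 5 of 39, both probes of *Hoxd11* and *Hoxc13* higher, *Hoxc8* and *Hoxa13* lower, beside 8.79% of all probes. The bound for *Hoxa13* sets the detected level against the lowest detected level of the other array. For *Hoxd13* the same bound was 1.04-fold higher at ZT10. Fold counts near the background share are no result about the *Hox* genes.

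In ADX+PSL mice the lumbar genes differed little between time points. *Hoxa10* differed by 0.03 log2 units, *Hoxd10* by -0.03, *Hoxc10* by -0.11, *Hoxc11* by -0.12 and *Hoxd11* by -0.24, whereas *Hoxa11* was at 0.34. The median over groups 10 and 11 was -0.07, and that over groups 4 to 7 was 0.26 with 11 of 12 genes higher at ZT10, beside 0.00 over all probes. Under no normalization between arrays, which moves the median of all probes by -0.10 in this comparison, 8 of 12 were higher. *Hoxa7* (0.45), *Hoxc5* (0.44) and *Hoxc6* (0.42) had the largest differences of groups 4 to 7. No *Hox* probe passed 2-fold (0 of 38, 2.72% of all probes), and 2 of 38 passed 1.5-fold (6.62% of all probes), *Hoxb8* at -0.85 and *Hoxb9* at -0.79, both lower at ZT10. The difference of groups 10 to 13 over groups 4 to 7 was -0.38. It was -0.18 in *HoxA*, -0.59 in *HoxC* and -0.07 in *HoxD*, and -0.10 when the *HoxC* genes were left out, an alternative chosen after seeing the data.

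**Figure D3:**
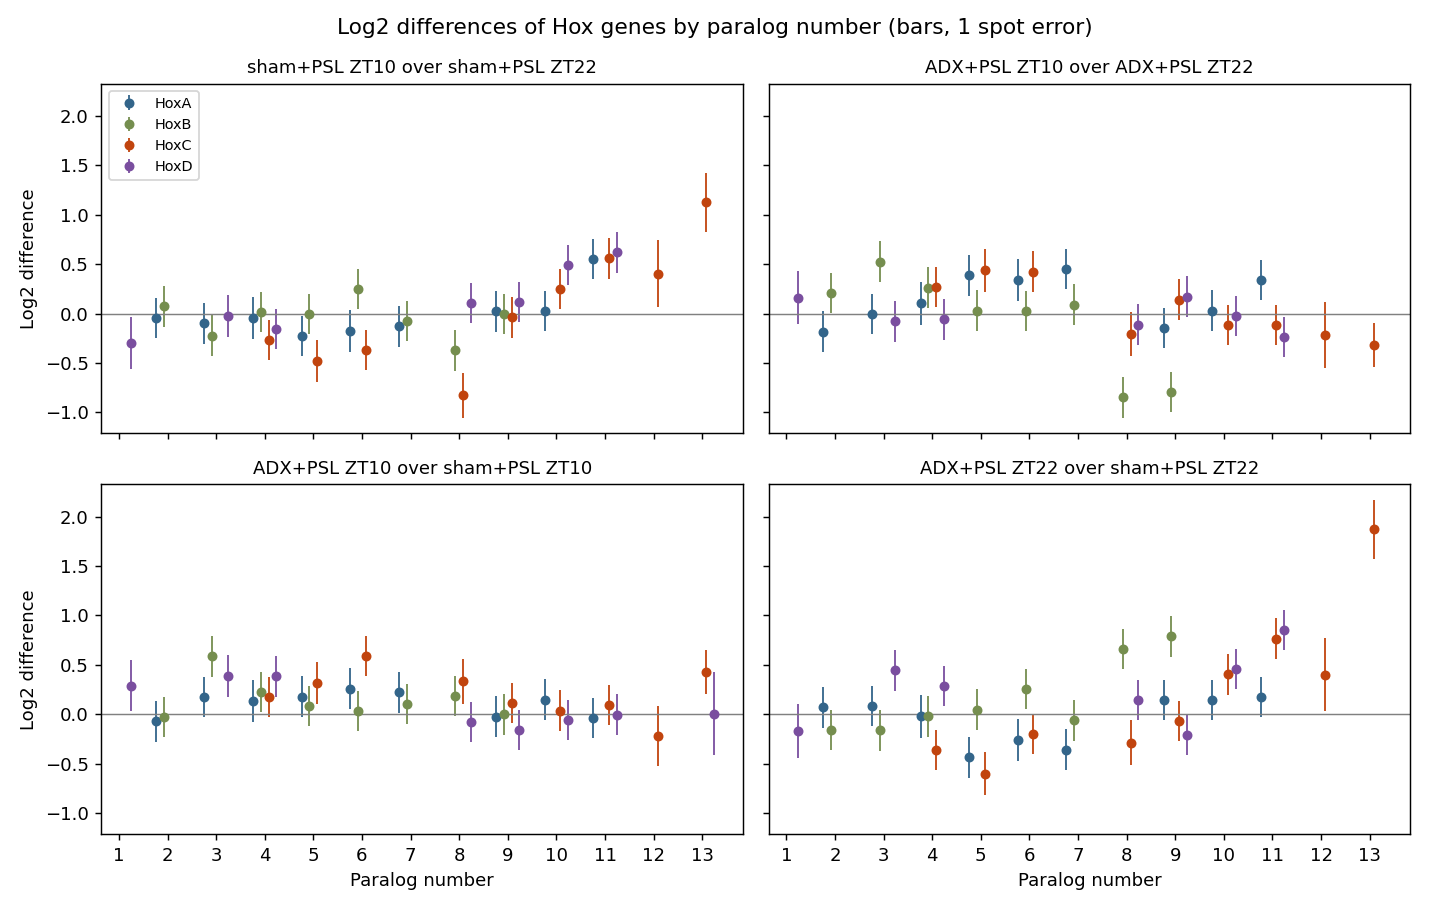
Log2 difference of the *Hox* genes shown (brightest probe, detected on both arrays) against its paralog number in the 4 comparisons, coloured by cluster, with bars of 1 spot error. In sham+PSL (ZT10 over ZT22) and at ZT22 (ADX+PSL over sham+PSL) the points of groups 10 to 13 lie above 0 in 8 of 8 genes, and both panels use the sham+PSL ZT22 array.

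The comparison of operations at ZT10 asks whether the light-phase slices of both operations came from a like level. In groups 10 and 11 *Hoxd10*, *Hoxa11* and *Hoxd11* were at -0.05, -0.03 and 0.00, *Hoxc10* at 0.04, *Hoxc11* at 0.09 and *Hoxa10* at 0.15, all within the spot error. *Hoxc13* was higher in ADX+PSL by 0.43 (spot error 0.23), and *Hoxc12* was at -0.22 (spot error 0.30). Groups 4 to 7 were higher in ADX+PSL in 12 of 12 genes, with a median of 0.20 beside 0.00 over all probes. That median was no larger than the spot error of a single gene, and several of the 12 genes lay within theirs. Under no normalization between arrays, 11 of 12 were higher. Past 2-fold were 0 of 38 *Hox* probes (3.68% of all probes), and past 1.5-fold were 2 of 38 (9.55% of all probes), *Hoxc6* and the brightest probe of *Hoxb3*, both at 0.59 and higher in ADX+PSL. *Hoxd3* and *Hoxd4* stood at 0.39 and 0.38. The difference of groups 10 to 13 over groups 4 to 7 was -0.19, also no larger than the spot error of a single gene.

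At ZT22 most lumbar genes were higher in ADX+PSL than in sham+PSL. *Hoxd11* differed by 0.86, *Hoxc11* by 0.77, *Hoxd10* by 0.46, *Hoxc10* by 0.40, *Hoxa11* by 0.18 and *Hoxa10* by 0.14, and *Hoxc13* by 1.87. Groups 10 and 11 had a median of 0.43 (6 of 6 above 0), and groups 4 to 7 a median of -0.13 (9 of 12 below 0). Under no normalization, which moves the median of all probes by 0.12, 6 of 12 genes of groups 4 to 7 were below 0. Past 2-fold was 1 of 38 *Hox* probes, *Hoxc13* (3.12% of all probes). Past 1.5-fold were 8 of 38 (8.45% of all probes): *Hoxb8*, *Hoxb9*, *Hoxc11*, both probes of *Hoxd11* and *Hoxc13* were higher in ADX+PSL, and *Hoxc5* (-0.60) and *Hoxa13* (at least 1.65-fold) were lower. Groups 10 to 13 over groups 4 to 7 differed by 0.56, at 0.47 in *HoxA*, 0.94 in *HoxC* and 0.37 in *HoxD*, and by 0.34 without the *HoxC* genes.

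Each comparison shares an array with 2 of the others. The sham+PSL time comparison and the comparison at ZT22 both rest on sham+PSL at ZT22, so the lumbar difference seen in each of them is 1 reading of that array and not 2. Across genes, Spearman's rho between the log2 difference and the paralog number was 0.60 in the sham+PSL time comparison (34 genes) and 0.49 at ZT22 (34 genes). It was -0.37 in the ADX+PSL time comparison (34 genes) and -0.30 at ZT10 (35 genes). Pearson's r was 0.59, 0.56, -0.34 and -0.31 in the same order. The genes of a cluster share their RNA and their neighbours and are not independent replicates, so that these values are descriptions.

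**Figure D4:**
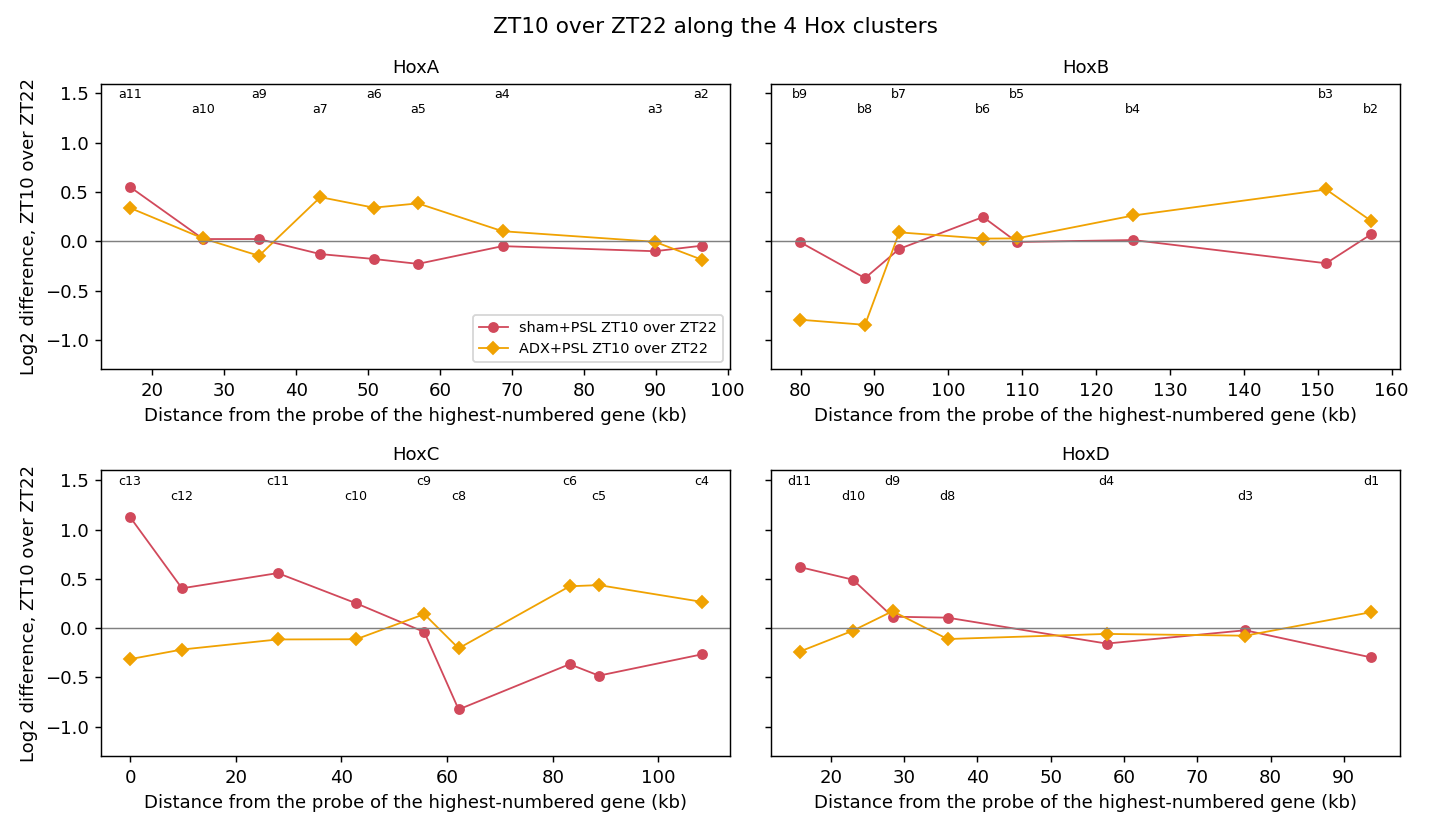
Log2 difference of ZT10 over ZT22 in sham+PSL and in ADX+PSL along the 4 clusters, against the distance (kb) of a gene's brightest probe from the probe of the highest-numbered gene, with gene names above the points. In the *HoxA*, *HoxC* and *HoxD* clusters the sham+PSL line is highest at its left end, at *Hoxa11* (0.55), *Hoxc13* (1.13) and *Hoxd11* (0.62).

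Along the chromosome the sham+PSL difference changed sign within the clusters. In *HoxC* it went from 1.13 at *Hoxc13* through 0.40 at *Hoxc12*, 0.56 at *Hoxc11* and 0.25 at *Hoxc10* to -0.04 at *Hoxc9* and -0.83 at *Hoxc8*. In *HoxD* it went from 0.62 at *Hoxd11* through 0.49 at *Hoxd10* to 0.12 at *Hoxd9* and 0.11 at *Hoxd8*. In *HoxA* the drop lay between *Hoxa11* (0.55) and *Hoxa10* (0.02). *HoxB*, which ends at *Hoxb9* among its detected genes, held no such end.

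All 9 genes of the Pbx, Meis and Pknox families, the cofactors of *Hox* proteins, were detected on every array, and 0 of 9 passed 1.5-fold in any comparison, beside 19.2% of all probes that passed it in at least 1 of the 4 comparisons. Of 14 genes on the array that feed into *Hox* expression in the embryo (retinoic acid, Cdx factors, *Gdf11* and Polycomb), 10 were detected on every array and 4 passed 1.5-fold in at least 1 comparison, read against the same 19.2%. *Aldh1a2*, which makes retinoic acid, read 594, 886, 259 and 203, and *Cyp26b1*, which breaks it down, read 398, 722, 241 and 261, both highest in sham+PSL at ZT22. *Aldh1a2* is also a marker of meningeal fibroblasts. *Cdx1* was detected only in sham+PSL at ZT10 (36.9) and *Cyp26a1* on both ZT22 arrays (28.2 and 27.5), close to background, and the caudal factors *Cdx2* and *Cdx4* on none.

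The tissue label was checked with markers of other cells. All 10 markers each of spinal neurons (among them *Nefl* and *Snap25*), motor neurons (*Calca*, *Prph*), astrocytes (*Aldoc*, *Fgfr3*), oligodendrocytes (*Mag*) and microglia (*Itgam*, *Csf1r*) were detected on every array. Of 11 sensory ganglion genes on the array, 4 were detected on every array and 4 on none, among them *Avil*, *Scn10a* and *Mrgprd*. Cell type lists also differed between arrays. In sham+PSL (ZT10 over ZT22), the median log2 difference was 0.20 for spinal neurons, 0.07 for motor neurons, -0.02 for astrocytes, -0.09 for oligodendrocytes and -0.43 for microglia. All 10 spinal neuron genes were higher at ZT10 in sham+PSL, the direction of the lumbar *Hox* genes. Of these 10, 6 were lowest in sham+PSL at ZT22 (28.1% of all probes) and 4 in ADX+PSL at ZT22 (25.6%). Red blood cell genes (*Hba-a2*, *Hba-a1*) were at 2.89 in the same comparison, with 7 of 8 lowest in sham+PSL at ZT22 and summed levels of 147245, 29219.8, 106002 and 100371. Skeletal muscle genes (*Pvalb*, *Tnni2*) were at 1.86 over the 7 measured, and at -1.98 (ZT10) and 0.10 (ZT22) for ADX+PSL over sham+PSL, so that sham+PSL at ZT10 was the array that stood high. *Pvalb*, named as the brightest of that list, did not follow it, at 0.23, -0.06 and 0.26 in the same order. Meningeal genes (*Dcn*, *Col1a2*) were at 0.14 in the sham+PSL time comparison, and at -2.09 (ZT10) and -2.001 (ZT22) for ADX+PSL over sham+PSL. The median of 0.14 covers a split list, with single genes between -2.74 and 1.55. Past 1.5-fold, 4 of the 16 were higher and 3 lower at ZT10, beside 8.79% of all probes in either direction. Schwann cell genes (*Mal*, *Pmp22*) were at -0.21 and the sensory ganglion list (*Pou4f1*, *P2rx3*) at 0.28 in the sham+PSL time comparison. For ADX+PSL over sham+PSL at ZT22, motor neuron genes were at -0.24, with 7 of 10 lowest in ADX+PSL at ZT22, on the array where *Hoxc10*, *Hoxc11* and the brightest probe of *Hoxd11* were highest. The part of these cell types in the *Hox* differences was not tested.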

How the data were processed

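Total RNA of 4 spinal cord samples was hybridized to 1 Agilent one-colour array each, all on 1 slide, so that no slide block could be fitted. The authors deposited, for each array, scanner intensity values of the spots with flags, and a table of normalized intensity values on the linear scale. The table was found to be quantile-normalized (equal medians, r of at least 0.999 with the scanner signal on the log2 scale), and its values were used as levels. The flag for spots well above background came from the deposited scanner files. The software is Agilent Feature Extraction 9.5.1.1 in the submitters' processing notes, and the file headers name another version. No fit and no p-value was possible with 1 array per condition.

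Log2 differences were taken between arrays, for the brightest probe of a gene on average. A probe was counted past a limit (ratio of 2 or 1.5) if its brighter array was well above background. Where the dimmer array was not, the bound used the lowest level flagged there. The spot error combines the software's signal errors of both arrays. Values for all 4 arrays are given for genes of groups 4 to 13, and groups 1 to 3 by range except those past 1.5-fold and *Hoxd3*, which was named after its values were seen, as were the genes singled out in the lists. The members, lists and limits were chosen with earlier results of these data known. Of the 44 probes, 43 carried an accession that matched a RefSeq symbol (GRCm38.p6), equal to the gene name in all 43. No *Hox* spot was saturated, and 3 of 248 were flagged as outliers.

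Alternatives were quantile normalization of the scanner signal (limma 3.58.1 in R 4.3.3), a shift by the 75th percentile, normexp background correction (offset 50), no normalization between arrays, other filters on dim probes, a Z-score of 2, the mean over the probes of a gene, and other divisions of the paralog groups. The steps were tested on simulated data. Python 3.11.15, numpy 2.4.6, pandas 2.3.3 and matplotlib 3.10.9 were used. Some items are not reported here by name or in the figures, and counts over the *Hox* genes and lists include them.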

Additional observations from a re-analysis of the deposited data

Results flagged for a closer look

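The following *Hox* differences ran in opposite directions in the 2 operations or at the 2 time points, and with 1 array per condition none of these contrasts was tested. The log2 difference of groups 10 to 13 over groups 4 to 7 for ZT10 over ZT22 was 0.66 (sham+PSL) and -0.38 (ADX+PSL), and -0.19 at ZT10 and 0.56 at ZT22 for ADX+PSL over sham+PSL. The genes that follow had both differences past their own spot error. This limit was chosen after the values had been seen and was applied to every *Hox* probe detected on all arrays. The values given are those of the brightest probe. The second probe of *Hoxd11* (0.91 and -0.03 for ZT10 over ZT22 in sham+PSL and ADX+PSL) and that of *Hoxb3* (-0.09 and 0.24) did not meet the limit.

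For ZT10 over ZT22, *Hoxc13*, a sacral and tail gene, was at 1.13 (sham+PSL) and -0.31 (ADX+PSL), and *Hoxd11*, a lumbar gene, at 0.62 and -0.24. The genes of groups 3 to 6 ran the other way. *Hoxb3* was at -0.22 and 0.53 in the same order, *Hoxc4* at -0.27 and 0.27, *Hoxa5* at -0.23 and 0.39, *Hoxc5* at -0.48 and 0.44, and *Hoxc6* at -0.37 and 0.42.

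For ADX+PSL over sham+PSL, *Hoxc5* was at 0.32 at ZT10 and -0.60 at ZT22, *Hoxa6* at 0.26 and -0.26, *Hoxa7* at 0.22 and -0.36, and *Hoxc8* at 0.34 and -0.29. Each of these pairs shares its 4 arrays with the others, so that they are not separate readings.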

How the results depend on the processing

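No paired analysis was possible because each condition had 1 array. Over all alternatives, 108 values stayed within 1.5 times the reported count or within the spot error of the reported difference, and 10 moved further. Many of the 108 had little room to move, so that their number does not measure how firm the results are. The 75th percentile shift and no normalization, for example, gave the same difference of groups 10 to 13 over groups 4 to 7 (0.67 in sham+PSL over time). Medians near 0 counted as unmoved even where their sign changed, since the spot error was 0.20. The median over all *Hox* genes lay on either side of 0 in both time comparisons, from -0.06 to 0.04 in sham+PSL and from -0.09 to 0.03 in ADX+PSL. The difference of groups 10 to 13 over groups 4 to 7 ran from 0.48 to 0.67 in the sham+PSL time comparison, from -0.38 to -0.10 in ADX+PSL, from -0.20 to -0.13 for the operations at ZT10 and from 0.34 to 0.57 at ZT22. Its values without the *HoxC* genes, an alternative chosen after seeing the data, were -0.10 in the ADX+PSL time comparison and 0.34 for the operations at ZT22.

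Counts of *Hox* probes past a limit are small and moved more. With normexp background correction, the counts past 2-fold were 0 for the sham+PSL time comparison and 0 for the operations at ZT22, and the counts past 1.5-fold were 2 for sham+PSL over time and 1 for the operations at ZT10. With both arrays required to be well above background, 1 probe was past 2-fold in sham+PSL, since *Hoxa13* then gave no ratio. Without normalization between arrays, 1 probe was past 2-fold in the ADX+PSL time comparison and 0 past 1.5-fold for the operations at ZT10, where the 75th percentile shift gave 1. The cause of the other changes was not tested. The sham+PSL ZT22 array was lowest in 8 of 8 genes of groups 10 to 13 under 4 of the 5 scalings and in 7 of 8 with normexp, where ADX+PSL at ZT10 was lowest for the remaining gene. Signal over background limits *Hoxc12*, *Hoxa13*, *Hoxd13* and, in sham+PSL at ZT22, *Hoxc13*, and the number of arrays limits every comparison.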
